A study of Mus musculus with 12 samples.

Results

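The cyclin-dependent kinase inhibitors of the mouse were followed here through changes of cell density and of Tead and Yap activity in fibroblasts. The members were all probe sets whose only gene symbol in the platform annotation was Cdkn1a, Cdkn1b, Cdkn1c, Cdkn2a, Cdkn2b, Cdkn2c or Cdkn2d. That rule gave 9 probe sets of the 45037 on the array that are not array controls, and 7 genes of 18193. Cdkn1a and Cdkn1b had 2 probe sets each and the other genes 1 each.

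Cyclin-dependent kinase inhibitors are small proteins that hold back the kinases driving a cell from G1 into S phase. The Cip/Kip family (Cdkn1a or p21, Cdkn1b or p27, Cdkn1c or p57) binds assembled cyclin and kinase complexes, above all those with Cdk2, while the Ink4 family (Cdkn2a or p16, Cdkn2b or p15, Cdkn2c or p18, Cdkn2d or p19) binds Cdk4 and Cdk6 and keeps them from the D-type cyclins. In fibroblasts p27 is known to accumulate when cells touch each other and stop dividing, largely because the protein is degraded less, which a transcript array does not see, and p21 is known as a target of p53.

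The study measured total RNA of NIH3T3 cells, an established mouse embryo fibroblast line known to have lost the locus that encodes p16 and Arf, on 12 Affymetrix arrays in 6 groups of 2. All cells had been infected with virus, so the controls carry a vector too. Control vector cells were taken at 30% confluency (low density) and at complete confluency. Cells with Tead2-EnR, in which the DNA-binding factor Tead2 is fused to the Engrailed repression domain, were taken at low density. Cells with Tead2-VP16, the fusion to a viral activation domain, were taken at complete confluency and also while still proliferating slightly past normal confluency, a state called high density here, and cells with Yap, the coactivator that binds Tead factors, were taken at that high density. The control has no array at high density, so for Yap and for the dense Tead2-VP16 cells the vector and the density cannot be told apart in any comparison with control cells. The promoter that drives the vectors is not given in the sources used here, and neither is the origin of the 2 arrays of a group, which may be 1 culture or 2. The p-values therefore cover only the spread between these arrays. In these bulk samples, a change in the share of cells that express a gene and a change in the RNA per cell cannot be told apart.

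The 8 fibroblast markers examined had mean log2 intensities of 10.1 to 14.3, all above the median gene at 6.87, while 5 of 5 endothelial, 3 of 3 adipocyte, 4 of 5 muscle, 4 of 6 macrophage and 4 of 6 epithelial markers lay below the median gene. The arrays of a group correlated across probe sets with r of 0.9970 to 0.9982. For Yap1 and Tead2 only the probe set with the highest mean was examined, and neither gave a check of the vectors. Yap1 read 9.62 and 9.69 in Yap cells against 9.95 and 9.98 in confluent control. Tead2 read 9.76 on both arrays of confluent Tead2-VP16 cells against 9.87 and 9.90 in confluent control. It read 9.82 and 9.84 in Tead2-EnR cells against 9.62 and 9.63 in low-density control. Whether these probe sets can detect the vectors' transcripts is not known here. Of the inhibitor genes, 4 were well above the array median on every leading probe set and the other 3 were dim on every array.

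Promoter sequences are shown for the 3 genes whose transcripts carry most of the results, with matches to a few known motifs marked. Each line is the 250 bases before a transcript start, in lower case, from RefSeq on GRCm38.p6 and written 5′ to 3′ on the strand of the gene. Capitals mark GC boxes (GGGCGG) and CCAAT boxes, which are common promoter elements. They also mark a p53 response element, searched as a pair of adjoining decamers of the known consensus with at most 1 mismatch. The windows are Cdkn1a at chr17:29090729-29090978 (plus strand, the more upstream of its 2 starts in the table), Cdkn1b at chr6:134920151-134920400 (plus strand) and Cdkn2c at chr4:109666757-109667006 (minus strand, the more upstream of its 2 starts).
Cdkn1a: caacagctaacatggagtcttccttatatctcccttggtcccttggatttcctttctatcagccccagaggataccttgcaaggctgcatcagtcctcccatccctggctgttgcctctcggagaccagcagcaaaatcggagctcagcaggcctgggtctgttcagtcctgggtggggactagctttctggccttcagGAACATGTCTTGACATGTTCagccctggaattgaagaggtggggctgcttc
Cdkn1b: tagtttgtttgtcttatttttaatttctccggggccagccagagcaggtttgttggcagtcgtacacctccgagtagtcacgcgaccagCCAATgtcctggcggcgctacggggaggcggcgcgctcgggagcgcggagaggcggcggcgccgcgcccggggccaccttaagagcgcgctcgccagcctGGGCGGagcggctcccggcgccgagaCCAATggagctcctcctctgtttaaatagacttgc
Cdkn2c: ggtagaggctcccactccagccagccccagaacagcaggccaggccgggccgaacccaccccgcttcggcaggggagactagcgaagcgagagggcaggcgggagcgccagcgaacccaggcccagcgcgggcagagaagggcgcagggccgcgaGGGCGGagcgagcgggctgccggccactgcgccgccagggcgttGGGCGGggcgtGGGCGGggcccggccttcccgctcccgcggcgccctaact

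In the Cdkn1a window the capitals are 1 match to the p53 element, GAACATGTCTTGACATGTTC, which begins 51 bases before the start. Of 32851 mouse promoter windows of this length, 25 held such a match, or 0.0761%, and this was the only 1 of 9 windows of the inhibitor genes that did. The window at the other Cdkn1a start held GC boxes at 104 and 46 bases instead. Which start gives the measured transcripts is not known here. The Cdkn1b window holds a GC box beginning 61 bases before the start and CCAAT boxes at 161 and 35 bases. The Cdkn2c window holds GC boxes at 95, 51 and 40 bases. GC boxes on either strand occurred in 5 of the 9 windows against 32.7% of all windows, and CCAAT boxes on either strand in 2 of the 9 against 33.8%. The core of the Tead site, CATTCC, was in 0 of the 9 windows (12.6% of all), and the forkhead site GTAAACA in 0 of the 9 (3.17% of all), on both strands. These are matches of letters in short windows, and they say nothing of Tead or forkhead binding elsewhere. The 9 windows belong to 6 of the 7 genes.

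The first comparison asked how the inhibitors depend on cell density, setting completely confluent control cells against sparse ones. Transcripts of Cdkn1b and Cdkn2c rose with confluency, by 2.35-fold and 1.45-fold, while those of Cdkn1a and Cdkn2d fell by 1.32-fold and 1.16-fold. The family therefore moved in both directions, within the Cip/Kip branch and within the Ink4 branch. Of the 9 probe sets, 7 were called at an adjusted p below 0.05 (3 higher, 4 lower), where 38.8% of all probe sets were called (20.2% higher and 18.6% lower). With dim probe sets left out, 68.8% of all were called. The median size of the log2 fold change was 0.397 for the members and 0.200 for all probe sets.

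Cdkn1b encodes p27, the inhibitor best known for arrest at high cell density. Its leading probe set, 1434045_at, the one with the higher mean, read 9.63 and 9.50 (log2 intensity) in low-density control and 10.85 and 10.74 in confluent control. Both confluent arrays lay more than 1 log2 unit above both sparse arrays. The log2 fold change was 1.23 ± 0.115 (SE of the fit, n = 2 and 2, adjusted p = 1.1e-05). The other probe set, 1419497_at, read 6.72 and 5.93 at low density and 7.32 on both confluent arrays, a difference of 0.99 ± 0.33 (adjusted p = 0.038). That call rested on single arrays, since the difference was 0.60 (adjusted p = 0.25) without the second low-density array and 0.99 (adjusted p = 0.12) without either confluent array.

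Cdkn2c encodes p18, an Ink4 protein that holds Cdk4 and Cdk6. Its probe set 1416868_at read 10.98 and 11.06 in low-density control and 11.52 and 11.58 in confluent control, with no overlap, and the log2 fold change was 0.54 ± 0.063 (SE, n = 2 and 2, adjusted p = 6.1e-05). Low-density control was the lowest of the 6 groups for this gene, and the other 5 group means lay between 11.44 and 11.55.

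Cdkn1a encodes p21, which binds Cdk2 complexes and also the replication clamp. Its leading probe set, 1424638_at, read 11.03 and 11.08 in low-density control and 10.68 and 10.63 in confluent control, so the sparse cells were the higher ones here. The log2 fold change was -0.40 ± 0.060 (adjusted p = 0.00037). The other probe set, 1421679_a_at, read 10.26 and 10.18 against 9.70 and 9.62, a log2 fold change of -0.56 ± 0.11 (adjusted p = 0.0022). Both probe sets thus placed confluent control below low-density control without overlap.

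Cdkn2d encodes p19, the other Ink4 protein expressed well above the median in these cells. Its probe set 1416253_at read 8.65 and 8.71 in low-density control and 8.41 and 8.52 in confluent control, a log2 fold change of -0.21 ± 0.068 (adjusted p = 0.031). The groups did not overlap, but the call was lost without the second low-density array (-0.18, adjusted p = 0.14) and without the first confluent array (-0.16, adjusted p = 0.19).

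**Figure D1:**
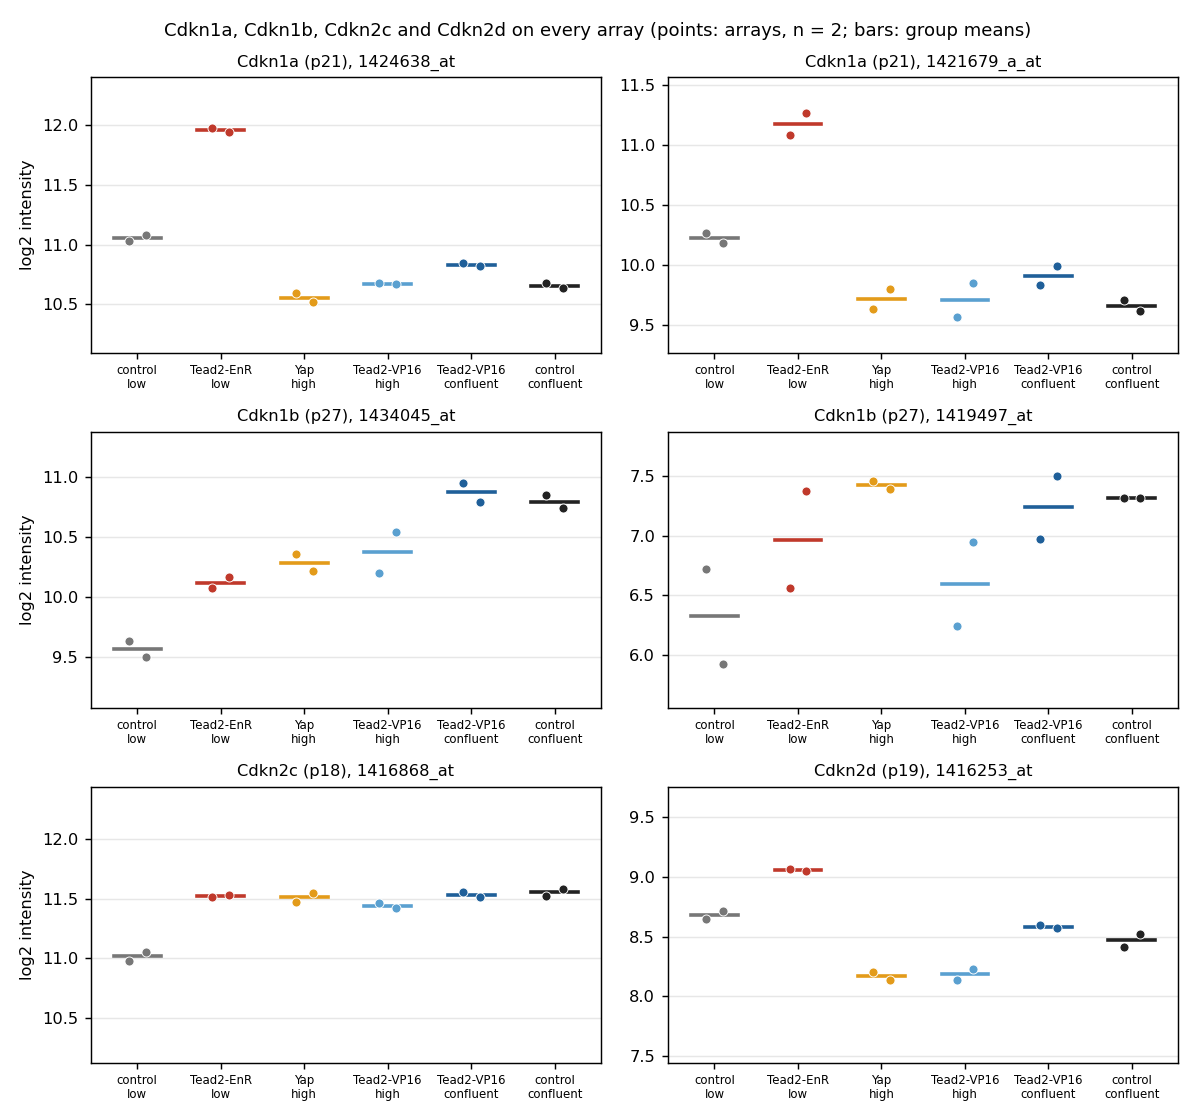
Log2 intensity (y axis) of the 6 probe sets of Cdkn1a, Cdkn1b, Cdkn2c and Cdkn2d in the 6 groups (x axis), with a point for each of the 2 arrays of a group and a bar at their mean; each panel has its own range, and the axes do not start at 0. Cdkn1a is highest in Tead2-EnR cells at 11.96, Cdkn1b rises from 9.57 in low-density control to 10.87 in confluent Tead2-VP16 cells, and Cdkn2c is lowest in low-density control at 11.02.

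The same step took the division programme down. All 9 measured genes of a proliferation list fell with confluency in control cells, with a median log2 fold change of -3.20, against 22.8% of all genes called lower (1 probe set per gene). Among them Ccna2 (cyclin A2, needed for S phase) changed by -3.21, Bub1 (a spindle checkpoint kinase) by -3.28 and Aurka (a mitotic kinase) by -3.20. A measure of RNA quality moved too, since the actin control read 0.081 ± 0.007 (SD) log2 units higher at its 3′ than at its 5′ end in low-density control and 0.234 ± 0.017 in confluent control. The transferrin receptor control read 0.978 ± 0.052 in low-density control and 1.30 ± 0.193 in confluent control. The part of division or of RNA quality in the results for the inhibitors was not tested.

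The second comparison asked what the repressor fusion does at low density, where it can be set against control cells of the same density. Transcripts of all 4 well measured inhibitor genes rose in Tead2-EnR cells. Cdkn1a rose most, by 1.87-fold, followed by Cdkn1b (1.47-fold), Cdkn2c (1.41-fold) and Cdkn2d (1.30-fold). In all, 5 of the 9 probe sets were called higher and 0 lower, where 27.5% of all probe sets were called (13.6% higher and 13.9% lower; 55.1% in all with dim probe sets left out), and the median size of the log2 fold change was 0.500 for the members against 0.157 for all.

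For Cdkn1a, the leading probe set read 11.98 and 11.94 in Tead2-EnR cells against 11.03 and 11.08 in control, the highest values for it on any of the 12 arrays. The log2 fold change was 0.90 ± 0.060 (SE, n = 2 and 2, adjusted p = 3.5e-06), and the other probe set, at 11.08 and 11.26 against 10.26 and 10.18, gave 0.95 ± 0.11 (adjusted p = 0.00013). This rise has the opposite sign to the fall of the same gene at confluency.

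For Cdkn1b, the leading probe set read 10.07 and 10.17 in Tead2-EnR cells against 9.63 and 9.50 in control (0.55 ± 0.115, adjusted p = 0.0048). The other probe set read 6.56 and 7.38 against 6.72 and 5.93, so its groups overlapped and its difference of 0.64 was not called (adjusted p = 0.20). Cdkn2c read 11.51 and 11.53 against 10.98 and 11.06 (0.50 ± 0.063, adjusted p = 0.00021), close to the 11.52 and 11.58 of confluent control. Cdkn2d read 9.06 and 9.05, its highest values on any array, against 8.65 and 8.71 (0.37 ± 0.068, adjusted p = 0.0020). Each of these calls held in every alternative setting and with any 1 array left out, apart from the second Cdkn1b probe set, which was not called.

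Set directly against confluent control, where 24.8% of all probe sets were called, the sparse Tead2-EnR cells had 2.46-fold more Cdkn1a (log2 difference 1.30, adjusted p = 2.8e-07) and more Cdkn2d (0.59, adjusted p = 0.00014), and less Cdkn1b (-0.68, adjusted p = 0.0017). Cdkn2c was 0.03 lower and not called (adjusted p = 0.76). These are the leading probe sets, and the second Cdkn1b probe set was not called (adjusted p = 0.52). Density and vector both differ between these groups and cannot be told apart. The density step and the Tead2-EnR comparison share the 2 low-density control arrays, so their values are given side by side and were not correlated.

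The 9 proliferation genes were lower in Tead2-EnR cells as well, all 9 called, with a median log2 fold change of -0.78 against 18.1% of all genes called lower. Ccna2 changed by -0.78, Bub1 by -1.01 and Aurka by -0.82. The actin control read 0.154 ± 0.020 (SD) higher at its 3′ than at its 5′ end in Tead2-EnR cells against 0.081 ± 0.007 in control, and the transferrin receptor control 1.12 ± 0.025 against 0.978 ± 0.052. The part of RNA quality or slower division in the rise of the inhibitors, or of the inhibitors in slower division, was not tested.

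**Figure D2:**
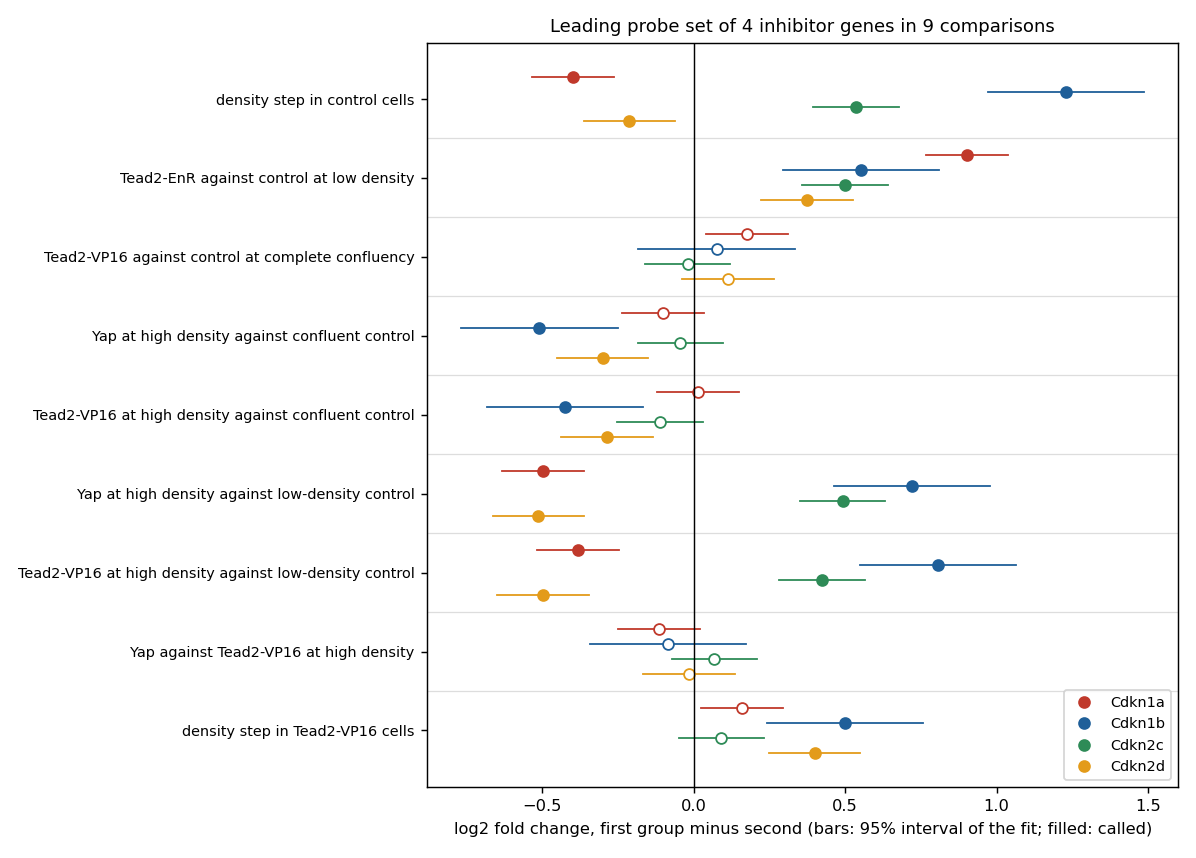
Log2 fold change (x axis, first group minus second) of the leading probe set of Cdkn1a, Cdkn1b, Cdkn2c and Cdkn2d in 9 comparisons (y axis), with 95% intervals of the fit and filled points where the adjusted p was below 0.05. All 4 points are filled and to the right of 0 for Tead2-EnR, the control density step splits into a pair on each side, and no point is filled for Tead2-VP16 at complete confluency or for Yap against Tead2-VP16.

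The third comparison set the activator fusion against control at the same complete confluency. None of the 9 probe sets was called by limma, and 1 had an unadjusted p below 0.05, where 5.22% of all probe sets were called (2.75% higher and 2.48% lower). The nearest was Cdkn1a, at 10.84 and 10.82 in Tead2-VP16 cells against 10.68 and 10.63, without overlap. Its difference of 0.18 ± 0.060 had an adjusted p of 0.14, which became 0.034 when dim probe sets were left out before the adjustment. For the others the 95% interval of the log2 difference ran from -0.18 to 0.33 for Cdkn1b, from -0.16 to 0.12 for Cdkn2c and from -0.04 to 0.26 for Cdkn2d (leading probe sets). In this comparison 5 of the 9 proliferation genes were lower and 1, Mcm2 (a replication helicase subunit), was higher, where 4.92% of all genes were lower and 5.06% higher. With any 1 array left out, 4 or 5 were lower and 0 higher.

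Yap cells and Tead2-VP16 cells at high density were then compared with both controls and with each other. The actin control read 0.122 ± 0.008 (SD) log2 units higher at its 3′ than at its 5′ end in Yap cells. It read 0.231 ± 0.078 in dense Tead2-VP16 cells and 0.234 ± 0.017 in confluent control. The transferrin receptor control read 1.31 ± 0.068, 1.23 ± 0.001 and 1.30 ± 0.193 in these groups, in that order. The part of RNA quality was not tested. Against confluent control, both groups had less Cdkn1b by its leading probe set and less Cdkn2d, with no call for Cdkn1a or Cdkn2c. Of the 9 probe sets, 2 were called lower and 0 higher in Yap cells (17.2% of all called, 8.09% higher and 9.13% lower). With dim probe sets left out, 41% of all were called. In Tead2-VP16 cells 2 were called lower and 1 higher (18.7% of all called, 8.92% higher and 9.80% lower). The probe set called higher was the dim one of Cdkn1c. Here 42.6% of all were called with dim probe sets left out. These 2 comparisons share the confluent control arrays. Of the 9 proliferation genes, 6 were higher and 2 lower in Yap cells (11.7% and 14.5% of all genes), median log2 fold change 0.52. In dense Tead2-VP16 cells 5 were higher and 3 lower (13.2% and 13.7%), with a median of 0.22. Against low-density control all 9 were lower in both groups (20.2% and 19.5% of all genes lower). The medians there were -2.68 for Yap and -2.95 for Tead2-VP16. The part of division in the inhibitor results was not tested.

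Cdkn1b (leading probe set) read 10.36 and 10.22 in Yap cells and 10.20 and 10.54 in dense Tead2-VP16 cells, all below the 10.85 and 10.74 of confluent control. The log2 fold change was -0.51 ± 0.115 for Yap (adjusted p = 0.013) and -0.42 ± 0.115 for Tead2-VP16 (adjusted p = 0.029). The other probe set was called in neither, at 7.45 and 7.39 in Yap cells and 6.25 and 6.95 in Tead2-VP16 cells against 7.32 on both confluent control arrays. Its difference was 0.10 for Yap, opposite in sign to the leading probe set (adjusted p = 0.89), and -0.72 for Tead2-VP16 (adjusted p = 0.19). Single arrays decided both calls of the leading probe set. For Yap the adjusted p was 0.097 (-0.44) without its second array and 0.089 (-0.46) without the first confluent array. For Tead2-VP16 the difference was -0.25 (adjusted p = 0.21) without its first array, -0.37 (adjusted p = 0.16) without the first and -0.48 (adjusted p = 0.071) without the second confluent array.

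Cdkn2d read 8.20 and 8.14 in Yap cells and 8.14 and 8.23 in dense Tead2-VP16 cells, the 4 lowest values of the series for this gene. Against the 8.41 and 8.52 of confluent control the log2 fold change was -0.30 ± 0.068 for Yap (adjusted p = 0.012) and -0.29 ± 0.068 for Tead2-VP16 (adjusted p = 0.015). These calls too were lost without the second confluent array, at -0.24 (adjusted p = 0.096) for Yap and -0.23 (adjusted p = 0.11) for Tead2-VP16. They were also lost without the second Yap array (-0.27, adjusted p = 0.091) and without the first dense Tead2-VP16 array (-0.24, adjusted p = 0.11).

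Against low-density control the same cells had less Cdkn1a and Cdkn2d and more Cdkn1b and Cdkn2c by the leading probe sets. In Yap cells 7 of the 9 probe sets were called, 3 higher and 4 lower (32.9% of all called, 17.3% higher and 15.6% lower). In Tead2-VP16 cells 5 of the 9 were called, 2 higher and 3 lower (32.6% of all called, 16.7% higher and 15.9% lower). With dim probe sets left out, 62.2% of all were called in each of these comparisons. For Yap the log2 fold changes of the leading probe sets were -0.50 for Cdkn1a (adjusted p = 1e-04), -0.51 for Cdkn2d (0.00018), 0.72 for Cdkn1b (0.00069) and 0.49 for Cdkn2c (0.00016). For Tead2-VP16 they were -0.38 for Cdkn1a (adjusted p = 0.00062), -0.50 for Cdkn2d (0.00022), 0.81 for Cdkn1b (0.00031) and 0.42 for Cdkn2c (0.00042). These 8 calls held with any 1 array left out. For Tead2-VP16 the second Cdkn1b probe set was not called (0.27, adjusted p = 0.60), and its groups overlapped. The second Cdkn1b probe set was called for Yap at 1.10 (adjusted p = 0.028), but not without the second low-density array (0.70, adjusted p = 0.20) or without either Yap array (1.06 and 1.13, adjusted p = 0.11 and 0.090).

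Between Yap and Tead2-VP16 at high density, 0 of the 9 probe sets were called by limma, where 1.73% of all were (1.12% higher and 0.611% lower). The 1 with an unadjusted p below 0.05 was the second Cdkn1b probe set, at 7.45 and 7.39 against 6.25 and 6.95 (0.82, adjusted p = 0.31). The 95% intervals of the log2 difference were -0.25 to 0.02 for Cdkn1a, -0.34 to 0.17 for Cdkn1b, -0.07 to 0.21 for Cdkn2c and -0.17 to 0.14 for Cdkn2d (leading probe sets). Any difference within those intervals was compatible with these 2 arrays a group. The intervals are not adjusted for the number of probe sets and are not limits of detection.

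Tead2-VP16 cells were also measured at both of their densities. From high density to complete confluency, Cdkn1b rose from 10.20 and 10.54 to 10.95 and 10.79 (0.50 ± 0.115, 1.41-fold, adjusted p = 0.016), and Cdkn2d rose from 8.14 and 8.23 to 8.59 and 8.57 (0.40 ± 0.068, 1.32-fold, adjusted p = 0.0034). These were 2 of the 9 probe sets, both higher, where 16.3% of all were called (8.26% higher and 8% lower). With dim probe sets left out, 39.7% of all were called. The Cdkn1b call was lost without the first high-density array (0.33, adjusted p = 0.12) and without the first confluent array (0.42, adjusted p = 0.10), while the Cdkn2d call held. Cdkn1a differed by 0.16 (adjusted p = 0.11) and Cdkn2c by 0.09 (adjusted p = 0.39), neither of them called, though with dim probe sets left out Cdkn1a was (adjusted p = 0.026). These are the leading probe sets. The other probe set of Cdkn1b was not called (0.64, adjusted p = 0.24), nor was that of Cdkn1a (0.20, adjusted p = 0.28), whose groups overlapped.

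The step in Tead2-VP16 cells starts from a denser culture than the step in control cells, so both are set side by side with that limit. The difference between the steps (Tead2-VP16 minus control) was called for 5 of the 9 probe sets, where 26.7% of all were called (12.7% higher and 14.1% lower). It was 0.56 ± 0.085 for the leading probe set of Cdkn1a (adjusted p = 0.00075), 0.76 for its other probe set (0.0047) and 0.61 for Cdkn2d (0.00085), each of which fell with density in control cells, and Cdkn2d rose in Tead2-VP16 cells. It was -0.73 for the leading probe set of Cdkn1b (0.0074) and -0.44 for Cdkn2c (0.0041), whose log2 fold changes were larger in control cells. The other Cdkn1b probe set was not called (-0.36, adjusted p = 0.66). The starting density and the vector cannot be told apart here.

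Ordered by level of the leading probe set, each gene had its own ranking of the 6 groups. For Cdkn1a the means ran from 11.96 in Tead2-EnR cells through 11.05 in low-density control, 10.83 in confluent Tead2-VP16, 10.67 in dense Tead2-VP16 and 10.66 in confluent control to 10.56 in Yap cells. The first step was called, and so was the second (adjusted p = 0.014, where 39.4% of all probe sets were called between those groups), while the last 3 steps were not (adjusted p = 0.11, 0.92 and 0.33). For Cdkn1b the order was confluent Tead2-VP16 (10.87), confluent control (10.80), dense Tead2-VP16 (10.37), Yap (10.29), Tead2-EnR (10.12) and low-density control (9.57). Here the steps from confluent control to dense Tead2-VP16 and from Tead2-EnR to low-density control were called and the others were not (adjusted p = 0.79, 0.83 and 0.40, the last where 16.6% of all probe sets were called between Yap and Tead2-EnR). The other Cdkn1b probe set had another order, with Yap highest (7.42) and low-density control lowest (6.33). None of its steps was called by limma (adjusted p = 0.55 to 0.93).

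For Cdkn2c only the last step was called, from dense Tead2-VP16 (11.44) down to low-density control (11.02). For Cdkn2d the order was Tead2-EnR (9.05), low-density control (8.68), confluent Tead2-VP16 (8.58), confluent control (8.47), dense Tead2-VP16 (8.18) and Yap (8.17). Its called steps were the first and the one from confluent control to dense Tead2-VP16. For the leading probe sets, the widest gap between any 2 group means was 1.40 log2 units for Cdkn1a (Tead2-EnR against Yap) and 1.31 for Cdkn1b (confluent Tead2-VP16 against low-density control), and it was below 1 for the other genes. The other Cdkn1a probe set had its widest gap, 1.51, between Tead2-EnR and confluent control.

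Cdkn1c, Cdkn2a and Cdkn2b gave little signal on any array. The Cdkn1c probe set 1417649_at (p57, an imprinted gene of embryonic tissues) ran from 3.57 to 4.15 with a median of 3.94, below the lower quartile of its array on 12 of 12 arrays. The Cdkn2a probe set 1450140_a_at (p16 and, from another reading frame, Arf) ran from 3.83 to 4.65 with a median of 4.14, below the median of its array on all 12 and below the lower quartile on 6. The Cdkn2b probe set 1449152_at (p15, encoded beside Cdkn2a and known for its response to TGF-beta) ran from 4.33 to 4.81 with a median of 4.61, below the median of its array on all 12 arrays. The deposited table carries no detection calls, so these are low values and not proof of absence. For Cdkn2a the line is in addition known to have lost the locus, so its values are read as background.

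Some differences among these dim values were called, also for Cdkn2a, whose locus the line is known to have lost. Cdkn1c differed by -0.28 between confluent and low-density control (adjusted p = 0.043) and by 0.41 between dense Tead2-VP16 and confluent control (adjusted p = 0.014). The first call was lost without the first confluent array (-0.15, adjusted p = 0.30) and without either low-density array (-0.25 and -0.31, adjusted p = 0.15 and 0.087). The second was lost without the first confluent array (0.28, adjusted p = 0.11) and without the first Tead2-VP16 array (0.38, adjusted p = 0.091). Cdkn2a differed by -0.48 between Yap and low-density control (adjusted p = 0.0496), a call lost without the first low-density array (-0.19, adjusted p = 0.33) and without either Yap array (-0.43 and -0.53, adjusted p = 0.19 and 0.11). In intensity units these 3 probe sets stayed between 11.9 and 28.0 on all arrays, where the array medians were 51.7 to 53.5. Cdkn2b was called by limma in 0 of the 9 comparisons, and in 0 of them was its unadjusted p below 0.05 or a call gained under another setting.

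**Figure D3:**
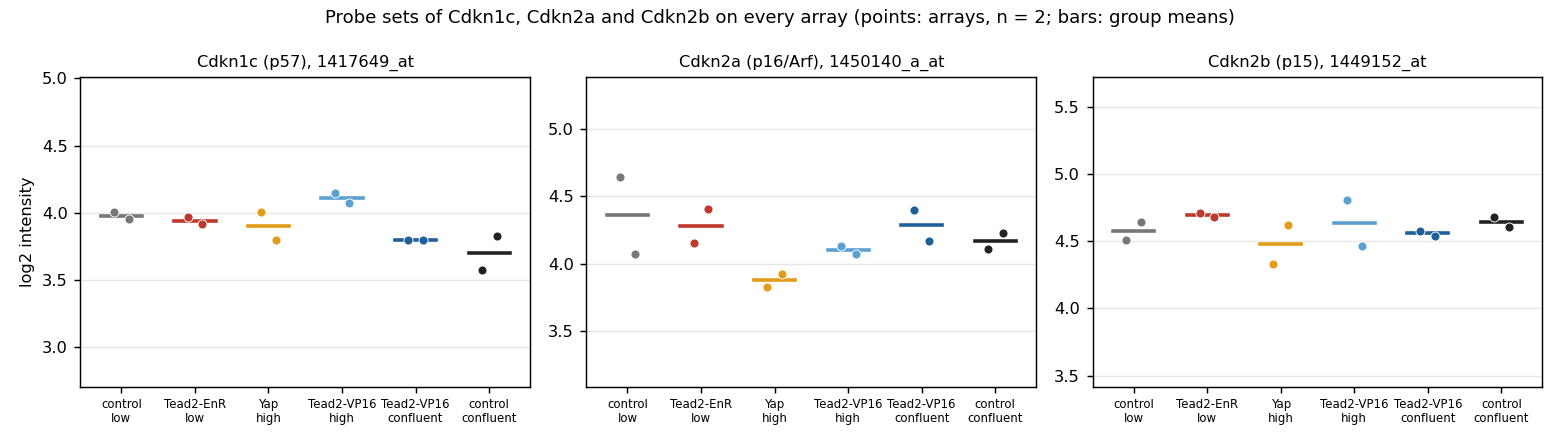
Log2 intensity (y axis) of the probe sets of Cdkn1c, Cdkn2a and Cdkn2b in the 6 groups (x axis), with a point for each of the 2 arrays and a bar at their mean. All points lie between 3.57 and 4.81, and for Cdkn2a and Cdkn2b the arrays of 1 group differ by more than the group means do.

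The partners of the inhibitors were examined as lists, with 1 probe set per gene. Among 11 cyclins and cyclin-dependent kinases, 7 fell and 1 rose at the density step in control cells, against 22.8% and 26.1% of all genes. Not all of them act in G1, and Ccna2 is also in the proliferation list. Ccna2 changed by -3.21, Ccne2 (cyclin E2, a Cdk2 partner) by -3.05 and Cdk1 (the mitotic kinase) by -2.41. In Tead2-EnR cells 5 fell and 2 rose, with Ccna2 at -0.78, Ccne2 at -0.54 and Cdk1 at -0.47, where 18.1% and 20.3% of all genes were called lower and higher. Without the second low-density array 4 fell and 0 rose. In Yap cells against confluent control 3 were higher and 2 lower, with Ccne2 at 0.84 (14.5% of all genes lower and 11.7% higher). Of the 2 lower genes, Ccnd2 (cyclin D2) lost its call with any 1 of the 4 arrays left out, which left 1.

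The genes of the ubiquitin ligases that mark p27 for degradation were a second list. Of 8 genes, 4 fell, 1 rose and 3 were not called at the density step (22.8% of all genes lower and 26.1% higher), with Skp2 (the subunit that recognises p27) at -1.60, Cks1b (its cofactor) at -1.14 and Cdc34 (a ubiquitin-conjugating enzyme) at -1.40. In Tead2-EnR cells 4 fell, 1 rose and 3 were not called (18.1% lower and 20.3% higher), with Skp2 at -0.59, Cdc34 at -0.66 and Cks1b at -0.35. The gene that rose, Rnf123, lost its call without single arrays. In Yap cells against confluent control 5 were higher and 1 lower (11.7% and 14.5% of all genes). The count for Yap hung on single arrays, with 3 higher without the first confluent array, 1 without the second, 2 without the first Yap array and 1 without the second. At complete confluency Skp2 differed by -0.25 in Tead2-VP16 cells and was not called (adjusted p = 0.20). Protein levels of p27 were not measured.

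The pocket proteins, which the kinases inactivate, were a list of 3. At the density step Rb1 rose by 1.02 and Rbl2 (p130) by 1.14, and Rbl1 (p107) fell by 1.43, all on the log2 scale. In Tead2-EnR cells Rb1 rose by 0.67 and Rbl2 by 0.70, with Rbl1 at 0.03 and not called. In Yap cells against confluent control Rb1 fell by 0.51 and Rbl2 by 0.66, while Rbl1 was higher by 0.39. Rb1 and Rbl2 thus had the same sign as the leading Cdkn1b probe set in these 3 comparisons, which share control arrays.

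**Figure D4:**
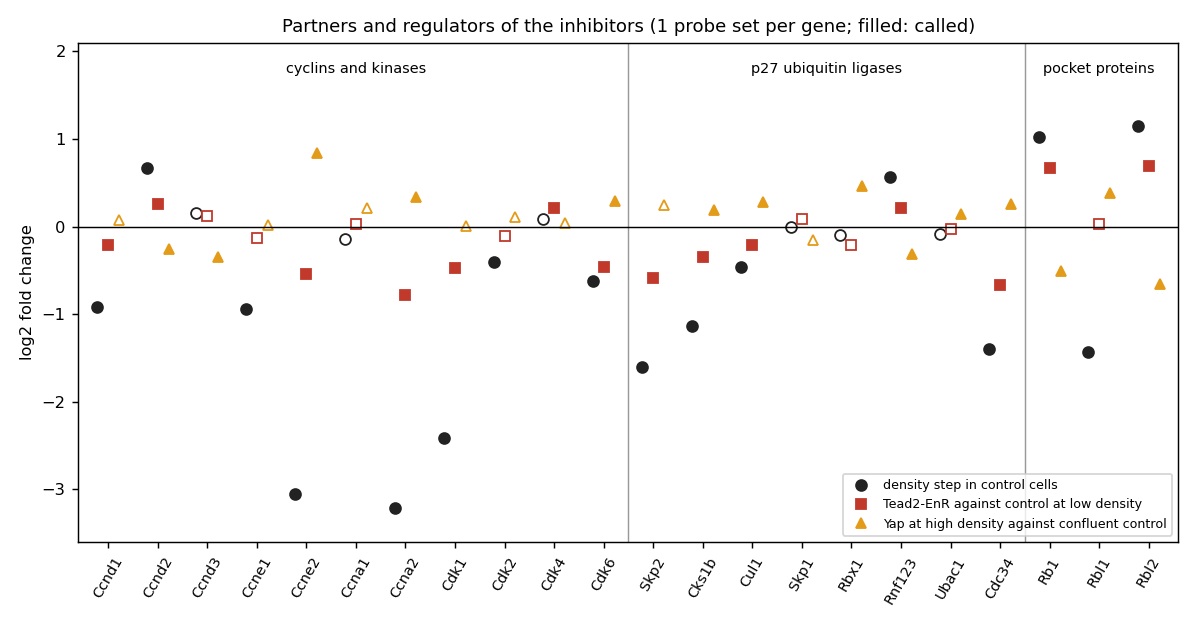
Log2 fold change (y axis) of the cyclins and kinases, the p27 ubiquitin ligase genes and the pocket proteins (x axis, 1 probe set per gene) for the density step in control cells (circles), Tead2-EnR at low density (squares) and Yap at high density against confluent control (triangles), filled where called. Skp2, Cks1b, Cdc34, Ccna2, Ccne2 and Cdk1 lie below 0 for both the density step and Tead2-EnR, and Rb1 and Rbl2 lie above 0.

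Because p21 is a known p53 target, 16 genes of the p53 pathway were examined. At the density step 5 rose and 8 fell (26.1% and 22.8% of all genes), and in Tead2-EnR cells 5 rose and 7 fell (20.3% and 18.1% of all genes). The Tead2-EnR calls of Btg2 (higher) and Sesn2 (lower) were lost without single arrays. In Tead2-EnR cells Trp53inp1 (a p53-induced nuclear protein) rose by 2.27 and Sesn1 (a stress-induced sestrin) by 1.32, as Cdkn1a did, but Aen (a p53-induced exonuclease) fell by 0.93 log2 units. At the density step Trp53inp1 rose by 1.90 and Sesn1 by 1.33, opposite to Cdkn1a, and Aen fell by 2.25.

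Of 20 transcription factors known to act on the inhibitors, 7 rose and 7 fell at the density step (26.1% and 22.8% of all genes). In Tead2-EnR cells 6 rose and 6 fell (20.3% and 18.1%). The Tead2-EnR calls of Dmtf1 (higher), E2f1 and Smad2 (both lower) were lost without single arrays. In Yap cells against confluent control 3 were higher and 8 lower (11.7% and 14.5%). The 8 became 4 without the first confluent array and 5 without the second or without either Yap array. Foxo3, known to activate Cdkn1b, rose by 1.38 with density and by 0.74 in Tead2-EnR cells, and was lower by 0.45 in Yap cells (log2 fold change -0.45, adjusted p = 0.00025). Ets2 rose by 1.03 with density and by 0.43 in Tead2-EnR cells. Id1, known as an antagonist of factors that raise p21 and p16, fell by 2.58 with density, was higher by 0.42 in Tead2-EnR cells and higher by 2.34 in Yap cells than in confluent control.

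Of 11 Polycomb genes known to repress the Ink4 locus, 3 rose and 3 fell at the density step, near the 26.1% and 22.8% of all genes, with Ezh2 (the histone methyltransferase) at -1.43, Suz12 (its partner) at -1.05 and Ring1 at 0.56. In Tead2-EnR cells 3 rose and 4 fell (20.3% and 18.1% of all genes), with Ezh2 at -0.36 and Ring1 at 0.46, and 2 rose and 2 fell without the first low-density array or without either Tead2-EnR array. Cdkn2a and Cdkn2b, the genes of that locus, stayed below the array median throughout. NIH3T3 cells are known to have lost the part that encodes p16 and Arf, so repression of Cdkn2a cannot be read here. Of 7 genes that resemble the inhibitors in name but belong to neither family, 2 rose and 3 fell at the density step (26.1% and 22.8% of all genes), with Cdkn3 (a kinase-associated phosphatase) at -1.09, Cdkn2aipnl at -0.95 and Inca1 at 1.08.

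Finally, genes with the most similar pattern over the 12 arrays were sought for the inhibitors that spanned at least 1 log2 unit, among 2183 genes above the median gene that spanned as much. For Cdkn1a these were Glul (glutamine synthetase, Pearson r = 0.976), Snord104 (0.962) and Ugcg (glucosylceramide synthase, 0.952). For Cdkn1b they were Tspyl1 (r = 0.988), Secisbp2l (0.985) and Cryz (0.983). The 12 arrays fall into 6 groups and share vectors and densities, so these values describe likeness and carry no test.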

How the data were processed

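The authors' deposited table holds linear probe set intensity values for 45101 probe sets on 12 arrays. Per the submitters' processing notes it was made with RMA (no version given), and the values were log2 transformed before any test. The 64 array controls were left out; 34945 probe sets had 1 gene symbol, 932 several and 9160 none. All 45037 others were fitted together with limma 3.58.1 in R 4.3.3 (lmFit, contrasts.fit, eBayes), with 1 mean per group, 6 residual and 3.69 prior degrees of freedom, two-sided tests and Benjamini-Hochberg adjustment over all probe sets. A probe set was called at an adjusted p below 0.05, and no filter on level was applied. The fit was tested on simulated data. Intervals are 95% intervals of the fit, and the number of arrays limits their precision.

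All members were named, each gene led by its probe set with the highest mean. The 3 most similar genes were named for members spanning at least 1 log2 unit, and of each list up to 3 called genes with the smallest adjusted p in the control density step, or genes a result turned on. Lists used the highest probe set per gene (18193 genes). Members and lists were chosen with earlier results of these data known. The difference between density steps and the GC box, CCAAT and p53 motifs were added after seeing the data. Alternatives were 1 probe set per gene, dim probe sets left out, a replicate block, repeated quantile normalization, median-centred arrays, only the 4 arrays compared, and each array left out. Promoters came from RefSeq (GRCm38.p6), and the files name no build of their own. Plots were made in Python 3.11.15 (matplotlib 3.10.9).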

Additional observations from a re-analysis of the deposited data

Results flagged for a closer look

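The density step in Tead2-VP16 cells (high density to complete confluency) differed from that in control cells (low density to complete confluency) for 5 probe sets, by a test of the difference itself (limma, adjusted over all probe sets) that was chosen after seeing the data. The steps start from different densities, so starting density and vector cannot be told apart. On the log2 scale, as Tead2-VP16 minus control, the difference was 0.56 for Cdkn1a 1424638_at (adjusted p = 0.00075) and 0.76 for Cdkn1a 1421679_a_at (0.0047), 0.61 for Cdkn2d 1416253_at (0.00085), -0.73 for Cdkn1b 1434045_at (0.0074) and -0.44 for Cdkn2c 1416868_at (0.0041). For Cdkn1a 1424638_at and Cdkn2d every Tead2-VP16 array moved up and every control array down. All 5 differences stayed called with a replicate block, with median-centred arrays and with any 1 array left out.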

How the results depend on the processing

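Of 765 member values under other settings, 721 kept their direction and side of the threshold, 39 lost a call, 5 gained one and 0 reversed. With dim probe sets left out, 1 member was called for Tead2-VP16 at complete confluency (0 in the full fit), and 3 for the Tead2-VP16 density step (2 in the full fit). With only the 4 arrays compared, 23 of the 31 member calls were kept. Members called went from 7 to 5 for the control density step, which lost Cdkn2d (adjusted p = 0.11) and Cdkn1c (0.10), from 7 to 6 for Yap against low-density control, which lost Cdkn2a (0.13), from 3 to 0 for dense Tead2-VP16 and from 2 to 1 for Yap, each against confluent control, and from 2 to 1 for the Tead2-VP16 density step. With 1 array left out, members called ranged from 4 to 6 for the control density step, 5 to 5 for Tead2-EnR, 0 to 0 for confluent Tead2-VP16, 0 to 2 for Yap and 0 to 3 for dense Tead2-VP16 against confluent control, 5 to 6 for each against low-density control, 0 to 0 between them, and 1 to 2 for the Tead2-VP16 density step. The cause was not tested beyond the smaller number of arrays.

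The replicate number as a block kept 29 of 31 member calls, with 6 called in the control density step and 6 for Yap against low-density control (7 and 7 without it). It lost the dim Cdkn1c (adjusted p = 0.056) and Cdkn2a (0.060). Same-numbered arrays did not deviate together over all probe sets, with r from -0.0757 to 0.1013 over 15 pairs of groups. A link confined to some genes was not tested.

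Over all probe sets, calls for confluent Tead2-VP16 numbered 2352, against 4231 with dim probe sets left out, 875 with 4 arrays and 1008 without the first confluent control array. Calls between Yap and dense Tead2-VP16 numbered 781, against 1524, 11 and, without 1 array, as few as 86. Calls in the Tead2-VP16 step numbered 7321, against 4288 with 4 arrays and 3719 without the first high-density array. Against confluent control they numbered 8429 for dense Tead2-VP16 and 7758 for Yap, and as few as 5302 and 4751 without 1 array. With dim probe sets left out, the share of probe sets called ran from 6.77% (Yap against dense Tead2-VP16) to 68.8% (control density step). Median centring moved the part of the called probe sets that were higher, for confluent Tead2-VP16, from 52.6% to 68.5%. With 1 probe set per gene fewer features were tested and the number of calls fell, as for the control density step from 17488 to 8898. The share called rose, there from 38.8% to 48.9%. Only 2 arrays a group, no detection calls and no control at high density limit every value.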
